A study of Mus musculus with 36 samples.

Results

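The genes described here are 9 parts of the DNA methylation machinery, chosen by name: the methyltransferases Dnmt1, Dnmt3a and Dnmt3b, the maintenance partners Uhrf1 and Hells, the dioxygenases Tet1, Tet2 and Tet3, and the methyl-CpG binding protein Mbd1. All 9 were found among the 54842 genes of the count table. RNA was measured in 36 libraries of mouse embryonic fibroblasts (MEF), in 12 groups of 3 replicates. MSR-dCas9-Control cells carry a doxycycline-inducible, catalytically dead Cas9 (dCas9). MSR-dCas9-Activator cells carry dCas9 fused to VPR, a strong transcriptional activation domain. Both lines also express, without induction, a guide RNA against the major satellite repeats (MSR) of pericentric heterochromatin, and both were kept as mixed cultures of drug-selected cells rather than as single clones. Each line was sampled uninduced, then at the end of an induction (10 ng/ml of doxycycline), and then at 4 time points of recovery in fresh medium, 3 h, 6 h, 12 h and 24 h after the drug was washed out. Induction lasted 24 h in the Control line and 6 h in the Activator line, so that after induction the effector and the length of exposure cannot be told apart. The study reports no loss of viability in either line when doxycycline was removed. By the last time point it reports most induced Activator cells as apoptotic or dead, while Control cells stayed viable. The part of cell death in the RNA levels after doxycycline removal was not tested.

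DNA methylation in mammals sits mainly on the cytosine of CpG pairs and is copied after each round of replication. UHRF1 binds hemimethylated CpG behind the fork and recruits DNMT1, the maintenance methyltransferase, while HELLS is a chromatin remodeller that gives the methyltransferases access to packed DNA and is needed for methylation of satellite repeats. DNMT3A and DNMT3B place methyl groups on unmethylated DNA, and DNMT3B has pericentric satellites among its best known targets. The TET enzymes oxidise 5-methylcytosine, which opens a route back to unmodified cytosine. MBD1 reads methylated CpG and recruits repressors. RNA levels were measured here, and neither DNA methylation nor protein levels were analysed here.

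Genes held between 27376846 and 57371803 counts per library (median 42865961). Transcripts of the MSR unit, listed as GSAT_MM, lay between 22.7 and 47.1 CPM (counts per 1000000 counts of a library, after TMM normalisation) in the Control line and between 52.1 and 99.3 in the uninduced Activator line, and reached between 2363 and 47260 in the Activator libraries from the end of induction onwards, which fits the labels of all 36 libraries. Replicates of the Activator line differed widely, at 3574, 2363 and 25200 CPM at the end of induction in the order of replicates 1 to 3. Replicate 3 was the highest of them at each time point from then on. Fibroblast markers were abundant in both lines, with Col1a1 at 2622 CPM or more, whereas Thy1 did not exceed 0.206. The summed level of 12 fibroblast markers lay between 22990 and 35230 CPM in the Control line and between 11220 and 20080 CPM in the Activator line at 12 and 24 h, where 8 of the 11 tested were lower at each time, and the part of this shift in the members' levels was not tested. Replicate 2 of the Activator line had the lowest mean correlation with the other libraries of its group at the 5 time points from the end of induction onwards, between 0.954 and 0.977 against 0.965 to 0.981 for replicates 1 and 3, and values without it are given where they change a call. Before induction it lay level with replicate 1, at 0.988. Mitochondrially encoded mRNAs took 1.45 to 2.56% of gene counts in the Control line and 1.64 to 3.60% in the Activator line.

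TMM normalisation scales libraries so that most genes do not differ. Differences are log2 fold changes ± SE from the quasi-likelihood test of edgeR, fitted to all 28536 genes that passed a filter on low counts, with p-values adjusted by Benjamini-Hochberg over all of them. A gene passed at an adjusted p under 0.05. All 9 members passed the filter, which asks for 3 libraries at 0.233 CPM or more. Tet1 reached this limit in 3 of 18 Control libraries, which only just meets the filter, and in 16 of 18 Activator libraries. A smaller number of cells and less RNA per cell cannot be told apart in these bulk samples.

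No member differed between the lines by the test before induction. At the end of induction 3 of the 9 were lower in the Activator line, namely Dnmt3b, Tet3 and Mbd1. At the later time points from 5 to 7 were lower, with Dnmt1 among them at 12 and 24 h. Uninduced, 0 of 9 members passed the edgeR test between the lines, against a background of 0.883% of all tested genes higher and 0.343% lower in the Activator line, and 4 members had an unadjusted p under 0.05. At the end of induction 1 member was higher and 3 were lower in the Activator line (background 31.7% higher and 25.5% lower). At 3 h the counts were 1 higher and 5 lower (39.6% and 31.4%). At 6 h they were 1 and 6 (40.8% and 33.3%), followed by 1 and 7 after 12 h (41.1% and 34.1%). The last time point, 24 h, gave 2 and 5 (34.5% and 29.4%). Tet1 was among the higher members at each of these 5 time points, and most of its libraries at the limit of the filter were of the Activator line. Without Tet1, 3, 5, 6, 7 and 6 members passed. Without Activator replicate 2 the count at the end of induction was 7 members in place of 4, 1 higher and 6 lower, with Dnmt3a (-0.33), Uhrf1 (-0.17) and Tet2 (-0.32) as the added ones. Scaled to the mitochondrially encoded mRNAs, 1 member was higher and 6 lower at the end of induction and 1 and 5 at 24 h. This scaling moved the median of all tested genes from 0.10 to -0.25 at the end of induction. At 12 h the median moved from 0.12 to -0.49, and at 24 h from 0.01 to -0.18. Shares of all tested genes without Activator replicate 2 or under this scaling are not given here.

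**Figure D1:**
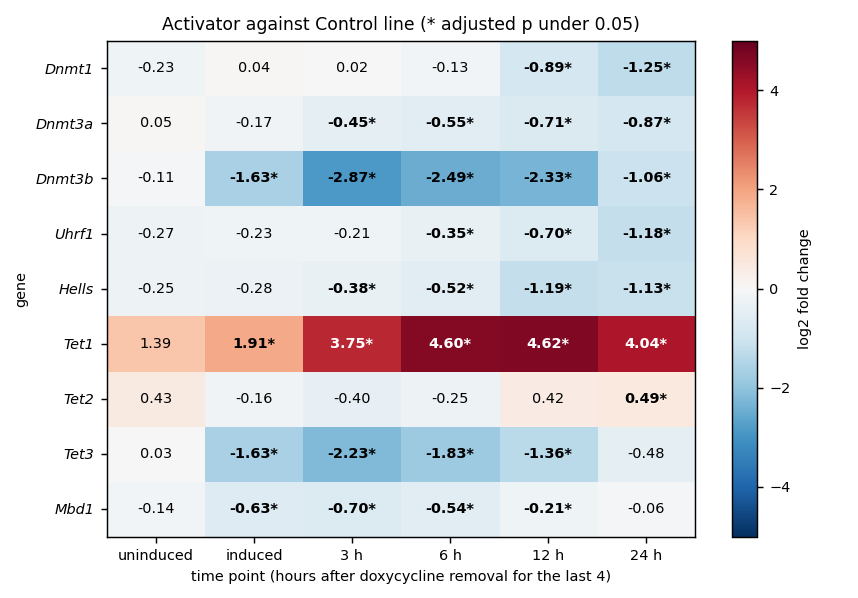
Log2 fold change of the Activator against the Control line for the 9 genes (rows) at the 6 time points (columns), with red for higher and blue for lower in the Activator line and an asterisk for an adjusted p under 0.05. No cell of the uninduced column carries an asterisk, Dnmt3b, Tet3 and Mbd1 are lowest at 3 h, and Dnmt1 and Uhrf1 are lowest at 24 h.

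Per length, the maintenance genes were the most abundant members. In uninduced Control cells Uhrf1 stood at 87.9 CPM per kb of exon, Dnmt1 at 39.6 and Hells at 30.3. Tet3 followed at 9.32, Mbd1 at 6.07 and Dnmt3a at 4.98, and Dnmt3b at 1.72 and Tet2 at 1.41 lay lower still. Tet1 was barely detected, at 0.00675 CPM per kb. In this group no 2 neighbours of the order overlapped in their 3 libraries. In uninduced Activator cells the order was the same except for Tet2, at 1.91, and Dnmt3b, at 1.59, whose ranges overlapped, as did those of Dnmt1 and Hells and those of Mbd1 and Dnmt3a.

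At 12 h after doxycycline removal the order in the Activator line had compressed. Uhrf1 still led at 52.5 CPM per kb, but Tet3 had dropped to 3.84, under Mbd1 at 5.58, although their ranges overlapped. Dnmt3b, at 0.426, overlapped with Tet1, at 0.308. By 24 h Tet3 stood at 7.50 and Dnmt3b at 1.03, and the ranges of Dnmt3b and Tet1 no longer overlapped.

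**Figure D2:**
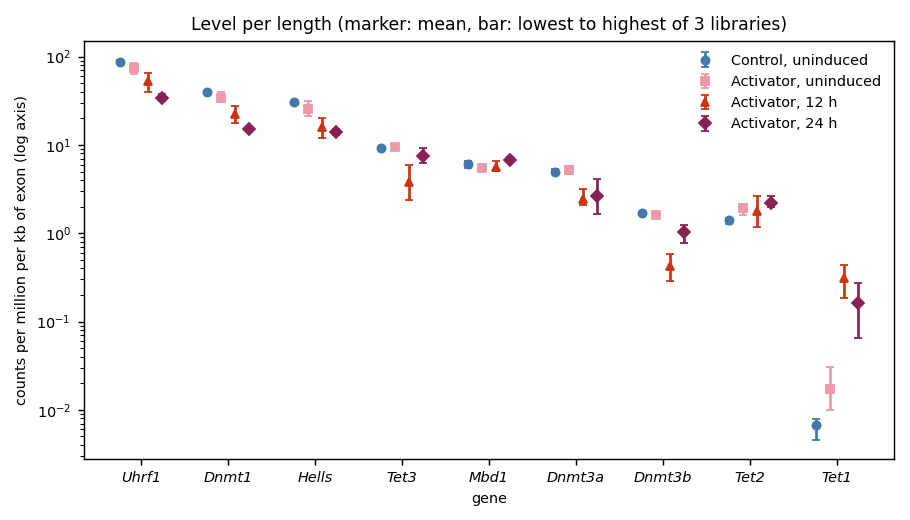
CPM per kb of merged exon (log axis) for the 9 genes in uninduced Control cells and in Activator cells uninduced and at 12 and 24 h after doxycycline removal; markers are means of 3 libraries and bars run from the lowest to the highest. Tet1 is the lowest gene in every group shown and lies at 0.308 in the Activator line at 12 h, near Dnmt3b at 0.426.

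Dnmt1, Uhrf1 and Hells, the maintenance genes, were lowest at 12 and 24 h after doxycycline removal. Before induction they already differed from the Control line by -0.231 ± 0.11, -0.265 ± 0.11 and -0.247 ± 0.13. None of these passed (edgeR adjusted p = 0.448, 0.328 and 0.557). Dnmt1 (ENSMUSG00000004099, GRCm38 chr9:20907209-20959888, minus strand) was at 274, 252 and 276 CPM in the Control libraries at 24 h, in the order of replicates 1 to 3, and at 112, 117 and 105 in the Activator libraries. Each Activator library lay under each Control library. The fall was -1.25 ± 0.11 (edgeR adjusted p = 1.42e-10), so that 41.9% of the Control level remained. At 12 h it was -0.89 ± 0.11 (edgeR adjusted p = 2.97e-08), with the Activator libraries at 206, 130 and 163 and the Control libraries at 310, 292 and 312. Replicate 2 was the lowest of the 3 Activator libraries at 12 h.

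Up to 6 h the Dnmt1 difference between the lines did not pass the test, and the 95% interval at 6 h ran from -0.35 to 0.08. Within the Activator line Dnmt1 was higher at the end of induction than before it, by 0.35 ± 0.11 (edgeR adjusted p = 0.00609). The libraries stood at 293, 225 and 233 CPM before induction and at 353, 283 and 323 after it, with the lowest induced library under the highest uninduced one. This direction turned under another scaling, since relative to the mitochondrially encoded mRNAs the same difference was -0.22 and did not pass (edgeR adjusted p = 0.141), beside a median of -0.49 for all tested genes.

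Uhrf1 (ENSMUSG00000001228, GRCm38 chr17:56303321-56323486, plus strand) was also lowest at 24 h, but within the Activator line it changed by 0.02 ± 0.11 from uninduced cells to the end of induction, which did not pass (edgeR adjusted p = 0.884). Its Activator libraries stood at 339, 294 and 317 CPM at the end of induction, at 281, 167 and 222 at 12 h, and at 162, 134 and 138 at 24 h. The Control libraries stayed between 303 and 395 over all 6 time points. At each of the 6, uninduced cells included, every Activator library lay under every Control library of that time. The lines differed by -0.70 ± 0.11 at 12 h (edgeR adjusted p = 1.30e-06) and by -1.18 ± 0.11 at 24 h (edgeR adjusted p = 3.44e-10). At 6 h the difference of -0.35 ± 0.11 also passed, but it did not pass without Activator replicate 2 (-0.13, edgeR adjusted p = 0.0962).

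Hells (ENSMUSG00000025001, GRCm38 chr19:38930915-38971051, plus strand) stood at a similar difference from the Control line at 12 and 24 h. At 12 h its Activator libraries stood at 145, 86.8 and 116 CPM against 266, 269 and 244 in the Control line, and at 24 h at 109, 98.6 and 94.2 against 222, 217 and 220. The groups did not overlap at either time point. The differences were -1.19 ± 0.14 (edgeR adjusted p = 7.46e-09) and -1.13 ± 0.14 (edgeR adjusted p = 4.41e-08). At 3 h a difference of -0.38 ± 0.13 passed, but not without Activator replicate 2 (-0.20, edgeR adjusted p = 0.0641). That replicate was the lowest of the Activator libraries at 4 of the 5 time points after induction began. At 6 h the difference of -0.52 ± 0.13 passed without overlap (edgeR adjusted p = 0.0011), and it passed in 15 of 18 alternatives.

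From 12 to 24 h Dnmt1 fell further in the Activator line, by 0.55 on the log2 scale (SE 0.11, edgeR adjusted p = 0.000384), as did Uhrf1, by 0.61 (SE 0.11, edgeR adjusted p = 0.000114). Hells changed by -0.18 ± 0.13, which did not pass. Scaled to the mitochondrially encoded mRNAs, the further falls of Dnmt1 and Uhrf1 were -0.22 and -0.28 and did not pass.

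Genes of S phase and DNA replication, which include the loading factors of the replicative helicase, the sliding clamp and the enzymes that supply nucleotides, were mostly lower in the Activator line at 12 and 24 h. Of 18 such genes tested, 3 were higher and 3 lower at the end of induction (background 31.7% and 25.5%), 2 were higher and 10 lower at 12 h (41.1% and 34.1%), and 0 were higher and 15 lower at 24 h (34.5% and 29.4%), with a median log2 fold change of -0.67 at 24 h against 0.01 for all tested genes. Rrm2, a subunit of ribonucleotide reductase, was lower by -2.10 ± 0.14 and Ccne1, cyclin E1, by -1.92 ± 0.11 at 12 h (edgeR adjusted p = 2.37e-13 and 1.94e-14). Within the Activator line 10 of the 18 were higher at the end of induction than before it and 0 lower, with a median of 0.30 against 0.08 for all tested genes, of which 32.9% were higher and 28% lower. Scaled to the mitochondrially encoded mRNAs the direction turned, with 0 higher and 9 lower and a median of -0.27 against -0.49 for all tested genes. The part of these changes in the levels of Dnmt1, Uhrf1 and Hells was not tested.

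The 3 maintenance genes also shared a feature of their promoters. E2F factors drive many S phase genes through short sites. The letters TTCCCGC were searched, together with the variant TTGGCGC, with TTCGCGC as another and with TTGCCGC as the last, on both strands of the RefSeq promoters (GRCm38.p6, 250 bases before to 50 after each start). Of the 8 members with a promoter in this set, 3 held such a match (37.5%), and these were Dnmt1, Uhrf1 and Hells. The share was 10.9% of 27025 genes and 9.57% of 32851 promoters, and 9 of 15 S phase genes with a promoter held one (60%). A match describes letters only and not a bound site. The windows with a match are shown 5′ to 3′ on the strand of the gene, with the matches in capitals, for Dnmt1 at chr9:20952574-20952873 (minus strand), Uhrf1 at chr17:56303087-56303386 and chr17:56304063-56304362 (plus strand), and Hells at chr19:38930740-38931039 (plus strand).
Dnmt1: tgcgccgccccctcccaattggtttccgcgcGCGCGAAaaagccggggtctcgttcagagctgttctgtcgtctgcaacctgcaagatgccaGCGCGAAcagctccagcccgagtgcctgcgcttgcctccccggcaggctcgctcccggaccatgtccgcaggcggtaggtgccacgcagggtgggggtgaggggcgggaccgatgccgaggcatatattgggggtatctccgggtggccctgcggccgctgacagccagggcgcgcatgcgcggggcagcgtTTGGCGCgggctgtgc
Uhrf1, first start: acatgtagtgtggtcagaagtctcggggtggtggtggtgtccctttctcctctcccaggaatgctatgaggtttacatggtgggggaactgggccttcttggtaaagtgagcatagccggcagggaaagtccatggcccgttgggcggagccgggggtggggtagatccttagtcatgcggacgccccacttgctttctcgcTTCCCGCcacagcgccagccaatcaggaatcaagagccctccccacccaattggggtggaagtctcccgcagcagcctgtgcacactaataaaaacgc
Uhrf1, second start: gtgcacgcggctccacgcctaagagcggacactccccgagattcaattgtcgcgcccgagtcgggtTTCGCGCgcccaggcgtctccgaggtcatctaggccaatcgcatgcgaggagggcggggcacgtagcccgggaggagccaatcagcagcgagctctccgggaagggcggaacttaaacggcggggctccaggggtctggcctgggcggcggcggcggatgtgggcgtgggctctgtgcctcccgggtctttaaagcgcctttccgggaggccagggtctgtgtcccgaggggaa
Hells: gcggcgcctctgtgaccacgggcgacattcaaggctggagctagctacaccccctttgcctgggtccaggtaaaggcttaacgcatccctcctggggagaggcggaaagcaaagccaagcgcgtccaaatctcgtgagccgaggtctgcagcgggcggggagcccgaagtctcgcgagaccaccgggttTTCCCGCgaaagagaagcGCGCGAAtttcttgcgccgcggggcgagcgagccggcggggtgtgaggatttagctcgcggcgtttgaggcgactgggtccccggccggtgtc
The Dnmt1 window shown held 3 matches, which began 219 and 158 bases before that start and 34 bases into the transcribed part. The other Dnmt1 windows, at chr9:20959839-20960138 and chr9:20952930-20953229, held 0 matches. In Hells the 2 matches lay close together, 61 and 43 bases before the start. The 2 windows of Uhrf1 held 1 match each.

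Dnmt3b fell first and deepest among the methyltransferases, and recovered in part. Dnmt3b (ENSMUSG00000027478, GRCm38 chr2:153649450-153687730, plus strand) was at 7.80, 8.05 and 8.58 CPM in the uninduced Activator libraries, at 2.84, 4.74 and 2.27 at the end of induction, and at 1.28, 2.01 and 1.02 at 3 h. The Control libraries stayed between 7.60 and 11.5. No Activator library from the end of induction onwards reached the lowest Control library. The difference between the lines was -1.63 ± 0.21 at the end of induction (edgeR adjusted p = 1.71e-07) and -2.87 ± 0.22 at 3 h (edgeR adjusted p = 7.75e-12), where 13.7% of the Control level remained.

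Thereafter Dnmt3b rose again. Its Activator libraries stood at 1.48, 2.95 and 2.10 CPM at 12 h and at 3.95, 6.33 and 5.42 at 24 h, an increase of 1.27 ± 0.22 from 12 to 24 h (edgeR adjusted p = 9.23e-05). Each library at 24 h lay above each library at 12 h. The difference from the Control line at 24 h was still -1.06 ± 0.20 (edgeR adjusted p = 4.98e-05). Replicate 2 was the highest Activator library at all 5 time points.

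Dnmt3a (ENSMUSG00000020661, GRCm38 chr12:3806007-3914443, plus strand) declined more slowly and did not recover by 24 h. Its Activator libraries stood at 77.5, 95.8 and 85.8 CPM before induction, at 34.5, 52.1 and 35.2 at 12 h, and at 27.5, 68.2 and 35.96 at 24 h. The Control libraries stood at 68.5, 67.6 and 59.8 at 12 h and at 77.7, 81.7 and 71.9 at 24 h. At both time points the lines did not overlap, although Activator replicate 2 came close to the lowest Control library at 24 h.

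The Dnmt3a difference was -0.71 ± 0.17 at 12 h (edgeR adjusted p = 0.000352) and -0.87 ± 0.17 at 24 h (edgeR adjusted p = 5.36e-05), and without Activator replicate 2 the latter was -1.10. The smaller differences at 3 h (-0.45 ± 0.16) and 6 h (-0.55 ± 0.16) passed, but neither passed when Activator replicate 1 of that time point was left out (edgeR adjusted p = 0.0689 and 0.0646), and that at 3 h did not pass without Control replicate 1 of that time point (0.0841). An antisense gene, Dnmt3aos, shares 133 bases of exon with Dnmt3a, and the strand setting of the counting is not given in the sources used here.

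**Figure D3:**
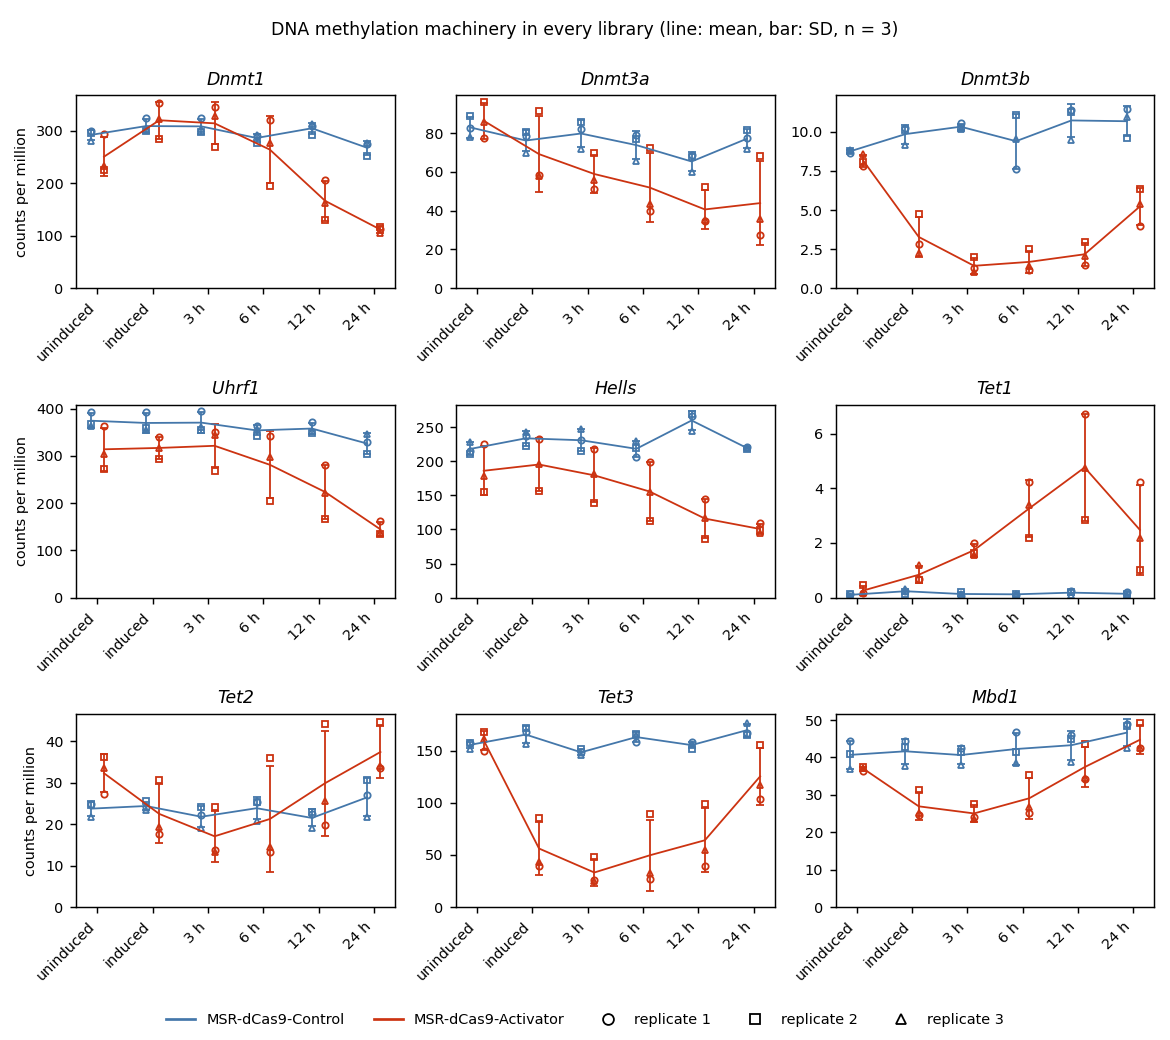
CPM (linear axes that start at 0) of the 9 genes in every library at the 6 time points, with the Control line in blue and the Activator line in red; symbols mark replicates 1 to 3, lines join the means and bars are SD (n = 3). The maintenance genes lie furthest below the Control line at 12 and 24 h, and Uhrf1 lies under it at all 6 time points. Dnmt3b, Tet3 and Mbd1 are already lower by the test at the end of induction. The square of replicate 2 is the highest Activator symbol for Dnmt3a, Dnmt3b, Tet2, Tet3 and Mbd1 from the end of induction onwards.

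The 3 TET genes went 3 ways. Tet3 (ENSMUSG00000034832, GRCm38 chr6:83362373-83459084, minus strand), the most abundant of them per length, followed Dnmt3b. Its Activator libraries stood at 150, 168 and 162 CPM before induction, at 39.6, 85.4 and 43.4 at its end, and at 26.2, 48.2 and 25.0 at 3 h. The Control libraries stayed between 145 and 177. All Activator libraries lay under all Control libraries at both of the latter time points.

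Tet3 differed between the lines by -1.63 ± 0.27 at the end of induction (edgeR adjusted p = 1.88e-05) and by -2.23 ± 0.28 at 3 h (edgeR adjusted p = 1.73e-07), which left 21.4% of the Control level. The libraries had returned to 103, 155 and 117 CPM at 24 h. The difference from the Control line was then -0.48 ± 0.26 (edgeR adjusted p = 0.118), with a 95% interval from -0.99 to 0.04. It passed without Activator replicate 2, at the same size (-0.48, edgeR adjusted p = 4.88e-06). The rise from 12 to 24 h was 1.01 ± 0.27 (edgeR adjusted p = 0.00562), and without Activator replicate 1 at 12 h it was 0.82 and did not pass (edgeR adjusted p = 0.0524).

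Tet2 (ENSMUSG00000040943, GRCm38 chr3:133463679-133545139, minus strand) dipped and came back. Its Activator libraries stood at 27.2, 36.1 and 33.5 CPM before induction, at 13.8, 24.1 and 13.3 at 3 h, and at 33.5, 44.7 and 34.0 at 24 h. The change from uninduced to 3 h within the line was -0.96 ± 0.20 (edgeR adjusted p = 0.000144), and the libraries of these time points did not overlap. Between the lines Tet2 passed only at 24 h, where it was higher by 0.49 ± 0.20 (edgeR adjusted p = 0.0329), with the Control libraries at 27.0, 30.7 and 21.7. Before induction Tet2 was already higher in the Activator line by 0.43 ± 0.20, without overlap, which did not pass (edgeR adjusted p = 0.442). Its change from uninduced cells to 24 h differed between the lines by 0.06 ± 0.28, which did not pass (edgeR adjusted p = 0.94).

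The call for Tet2 at 24 h was not firm, and it was lost when any of Control replicate 2, Control replicate 3 or Activator replicate 2 at 24 h was left out (edgeR adjusted p = 0.102, 0.109 and 0.0541). Without Activator replicate 2 at all time points, Tet2 was lower in the Activator line at 3 h (-0.60, edgeR adjusted p = 2.95e-05) and 6 h (-0.67, edgeR adjusted p = 5.75e-06). At 6 h that replicate stood at 35.9 CPM and the other Activator libraries at 13.3 and 14.5. The antisense gene Gm42567 shares 43 bases of exon with Tet2.

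Tet1 (ENSMUSG00000047146, GRCm38 chr10:62804570-62908996, minus strand), best known from embryonic stem cells and the germ line, lay near the limit of detection in the Control line, with 3 to 13 counts per library, and reached up to 278 counts in an Activator library. Its Control libraries at 12 h stood at 0.254, 0.204 and 0.0944 CPM, and its Activator libraries at 6.72, 2.82 and 4.74. Over all Control libraries the highest value was 0.327, and every Activator library from the end of induction onwards lay above it. Before induction Tet1 was already higher in the Activator line by 1.39 ± 0.63, without overlap, which did not pass (edgeR adjusted p = 0.412). The difference from the Control line was 1.91 ± 0.48 at the end of induction, 4.62 ± 0.45 at 12 h and 4.04 ± 0.48 at 24 h. Tested with no filter on low counts, which removes the part of the filter in this result, the differences were 1.91, 4.64 and 4.11 (edgeR adjusted p = 0.00101, 1.54e-11 and 3.33e-09). The change of Tet1 from uninduced cells to the end of induction differed between the lines by 0.52 ± 0.84, which did not pass (edgeR adjusted p = 0.704).

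Tet1 was 1 of many genes that are nearly silent in these fibroblasts and higher in the Activator line. Of the 10370 tested genes with a mean under 0.5 CPM in the Control libraries, 52.7% were higher in the Activator line at the end of induction and 71.7% at 12 h. Such genes could enter the test through their Activator libraries alone, so that these shares are not those of all silent genes. Markers of other cell types moved in both directions. The summed level of 7 endothelial markers went from between 0.637 and 1.98 CPM in the Control line to between 14.2 and 44.9 in the Activator line from the end of induction onwards, led by Pecam1 and Tek, while Cdh5 stayed at or under 0.533. The summed level of 10 pluripotent and germ cell markers lay between 0.330 and 1.11 CPM in the Control line and between 0.786 and 4.16 in the Activator line. Of these, Pou5f1 went from at most 0.145 CPM in the Control line to at most 1.62 in the Activator line, Nanog lay between 0.266 and 1.06 in the Control line and between 0.138 and 0.983 in the Activator line, and Utf1 was at 0 in every library. The summed level of 8 immune markers lay between 11.4 and 15.4 CPM in the Control line and between 12.99 and 28.95 in the Activator line from the end of induction onwards. That of 8 epithelial markers was lower there, between 30.3 and 107.3 CPM against 99.6 to 187.7 in the Control line, nearly all of it from Cdh3, while Epcam did not exceed 0.0967. The part of these shifts in the level of Tet1 was not tested.

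Tet1 was lower at 24 h than at 12 h in the Activator line, by -0.98 ± 0.34 (edgeR adjusted p = 0.0239), with libraries at 4.24, 1.00 and 2.20 CPM at 24 h that overlapped with those at 12 h. The call was lost when either Activator replicate 1 or 3 at 12 h, or 2 or 3 at 24 h, was left out (edgeR adjusted p = 0.155, 0.0809, 0.169 and 0.0804), and under the scaling to mitochondrially encoded mRNAs (-0.66, edgeR adjusted p = 0.177).

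Mbd1 (ENSMUSG00000024561, on chromosome 18) showed the smallest change of the genes that fell early. Its Activator libraries stood at 36.3, 37.4 and 37.3 CPM before induction, at 24.5, 31.2 and 25.1 at its end, at 24.0, 27.6 and 23.5 at 3 h and at 42.6, 49.2 and 42.4 at 24 h. The Control libraries stayed between 36.8 and 49.0. At the end of induction and at 3 h the lines did not overlap, with differences of -0.63 ± 0.10 (edgeR adjusted p = 2.58e-06) and -0.70 ± 0.10 (edgeR adjusted p = 2.62e-07).

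At 24 h Mbd1 differed by -0.06 ± 0.10 between the lines, with a 95% interval from -0.25 to 0.13. The value at 12 h, -0.21 ± 0.10, passed narrowly (edgeR adjusted p = 0.0459), and leaving out any of 5 of the 6 libraries compared took it past the threshold, with values from -0.04 to -0.21. Within the Activator line Mbd1 at 24 h was above its uninduced level by 0.27 ± 0.10 (edgeR adjusted p = 0.0155), but not by the test when scaled to the mitochondrially encoded mRNAs (0.09, edgeR adjusted p = 0.719), and this change differed from that in the Control line by 0.07 ± 0.14, which did not pass (edgeR adjusted p = 0.739).

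In the Control line doxycycline and its removal left the members without a passing change. Between uninduced and induced Control cells 0 of 9 passed the edgeR test (background 0.214% of tested genes), and 0 had an unadjusted p under 0.05. Between uninduced cells and 24 h after removal 0 passed (background 0.788%), and 1 had an unadjusted p under 0.05. In the Activator line, 6 members passed between uninduced and induced cells, 2 higher and 4 lower (background 60.8% in either direction), and 7 between uninduced cells and 24 h, 2 higher and 5 lower (62.8%). Scaled to the mitochondrially encoded mRNAs these splits were 1 higher and 7 lower, and 1 higher and 5 lower. The medians of all tested genes were then -0.49 and -0.17.

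**Figure D4:**
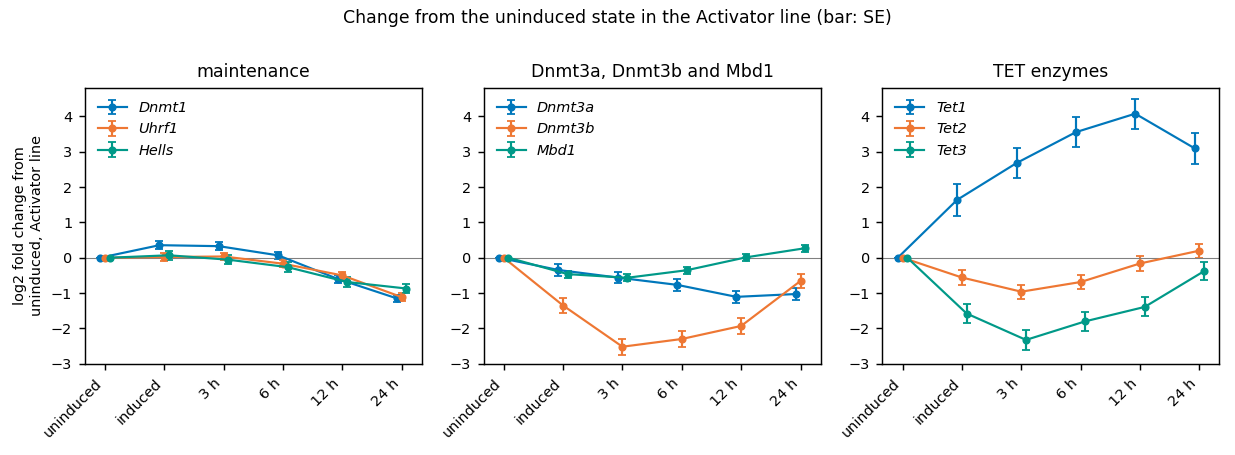
Log2 fold change from uninduced cells within the Activator line at the 5 later time points, with SE as bars, for the maintenance genes (left), Dnmt3a, Dnmt3b and Mbd1 (middle) and the TET genes (right). Dnmt1, Uhrf1 and Hells lie furthest below 0 at 24 h, Dnmt3b and Tet3 are lowest at 3 h, and Tet1 peaks at 12 h.

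The change from the uninduced state was also compared between the lines directly, as an interaction term, which removes what already differed before induction. By this test 3 members passed at the end of induction (background 32.2%). At 3 h 5 passed (47.1%), followed by 6 members 6 h after removal (50.1%), 7 after 12 h (51%) and 6 after 24 h (33.1%). Dnmt3b passed at all 5 time points, Tet3 at 4 and Mbd1 at 3, and Tet1 was among those counted at the 4 time points after removal. Dnmt1, Uhrf1 and Hells passed at 12 and 24 h and at no earlier time. From 12 to 24 h in the Activator line 6 members passed, 3 higher and 3 lower (background 37.1%), and 3 higher and 0 lower under the scaling to mitochondrially encoded mRNAs. The higher ones were Dnmt3b, Tet3 and Mbd1, the genes that had fallen early. In a fit with 1 difference between the lines over the whole time course, 8 of 9 members passed, 1 higher and 7 lower (background 82.1%), and Tet2 did not (0.09 ± 0.10, edgeR adjusted p = 0.421).

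Members with like time courses also had high correlations over the 36 libraries, which share groups, so that these values are a description. Dnmt1 and Uhrf1 had a Pearson r of 0.954 on log2 levels, and r within the 18 Activator libraries was 0.961. Dnmt3b and Tet3 had r = 0.961, and Tet3 and Mbd1 r = 0.887. Pairs of Dnmt1, Uhrf1 or Hells with Dnmt3b, Tet3 or Mbd1 had r from -0.323 to 0.469 over all libraries. The highest was Hells with Dnmt3b, and Dnmt1 with Dnmt3b had 0.130. Within the Activator line all such pairs were inverse, from -0.887 to -0.203. Within the 18 Control libraries r was 0.849 for Dnmt1 and Uhrf1, 0.197 for Dnmt3b and Tet3, and 0.355 for Tet3 and Mbd1.

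Among 13576 well detected genes, those most like each member named its company. Dnmt1 ran most closely with Plk1, a mitotic kinase (r = 0.987), Uhrf1 with Jpt2 (0.974) and Mki67, the proliferation marker (0.971), and Hells with Birc5, the survivin of the chromosomal passenger complex (0.979). Mir7081, second to Plk1 for Dnmt1 (0.985), lies inside Dnmt1. Dnmt3b ran with Tnrc6a, a scaffold of microRNA silencing (0.989), and Ncoa6 (0.987), Tet3 with 9930021J03Rik and Snx33 (both 0.991), and Mbd1 with Trim6 (0.952). For Dnmt3a the closest gene was Creb3l2 (0.974), for Tet1 Tmc4 (0.972) and for Tet2 P2rx4 (0.924).

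Other readers of methylated CpG were mostly lower in the Activator line as well. Of 9 further readers, 1 was higher and 5 lower in the Activator line at the end of induction (background 31.7% and 25.5%), and 1 and 8 at 12 h (41.1% and 34.1%), with a median log2 fold change of -0.97 against 0.12 for all tested genes. Mbd2, which links methylated DNA to the NuRD complex, was lower by -2.37 ± 0.16 at 12 h (edgeR adjusted p = 2.73e-13), and Mbd4, a thymine glycosylase, by -1.71 ± 0.14 (edgeR adjusted p = 9.38e-12). Zbtb33, or Kaiso, was lower by -1.39 ± 0.12 at 12 h (edgeR adjusted p = 3.76e-11).

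Of 14 partners and regulators of the methyltransferases tested, 2 were higher and 5 lower at the end of induction (background 31.7% and 25.5%) and 2 and 8 at 12 h (41.1% and 34.1%), with a median of -0.40 at 12 h against 0.12 for all tested genes. Zfp57, which guides methylation at imprinted regions, was lower by -1.60 ± 0.24 at the end of induction (edgeR adjusted p = 3.58e-06), and Setdb1, an H3K9 methyltransferase, by -1.75 ± 0.15 at 12 h (edgeR adjusted p = 2.02e-11). Cdca7, the activator of HELLS, was lower by -0.66 ± 0.10 at the end of induction (edgeR adjusted p = 1.37e-06), when Hells differed by -0.27 ± 0.13 and did not pass. Hdac1 was higher by 0.49 ± 0.11 at 12 h (edgeR adjusted p = 0.000332). Dnmt3l, the catalytically inactive cofactor of DNMT3A and DNMT3B in germ cells, was at 0 in the 3 Control libraries at 12 h and at 0.484, 0.482 and 0.412 CPM in the Activator libraries. Dnmt3l is counted among the 2 higher at 12 h, with a mean of only 3.88 normalised counts over all libraries. Those 3 Activator libraries alone meet the filter on low counts, and against Control libraries at 0 Dnmt3l could only be higher.

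The base excision and repair genes that complete the removal of oxidised 5-methylcytosine were mostly lower. Of 15 tested, 1 was higher and 10 lower at the end of induction (background 31.7% and 25.5%) and 4 and 8 at 12 h (41.1% and 34.1%). Neil2, a DNA glycosylase, rose from 1.10 ± 0.31 at the end of induction to 3.87 ± 0.31 at 12 h in log2 fold change between the lines (edgeR adjusted p = 0.00324 and 5.34e-12). Gadd45a turned from -0.99 ± 0.21 to 1.24 ± 0.21 over the same hours (edgeR adjusted p = 0.000217 and 5.95e-06). Tdg, the glycosylase that excises oxidised 5-methylcytosine, differed by -0.09 ± 0.09 at the end of induction, which did not pass, and by -0.73 ± 0.09 at 12 h (edgeR adjusted p = 1.52e-08). Neil3, Smug1 and Ung were lower at 12 h, by -1.89, -1.40 and -1.33.

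Of 12 genes of the cycle that makes and uses the methyl donor S-adenosylmethionine, 3 were higher and 3 lower at the end of induction, a share no larger than the background of 31.7% and 25.5%, and 3 and 8 at 12 h (41.1% and 34.1%). Mat2a, whose product makes S-adenosylmethionine, was lower by -2.16 ± 0.18 at the end of induction (edgeR adjusted p = 2.26e-10), and its regulatory partner Mat2b by -0.69 ± 0.13 (edgeR adjusted p = 6.93e-05). Gnmt, which consumes S-adenosylmethionine, was higher by 2.40 ± 0.28 at the end of induction and by 3.32 ± 0.29 at 12 h (edgeR adjusted p = 3.69e-08 and 3.90e-11). Of 10 enzymes that make the cofactors of the TET proteins or modify them, 0 were higher and 2 lower at the end of induction (background 31.7% and 25.5%), and 1 and 4 at 12 h (41.1% and 34.1%). Ogt, the partner of TET proteins that attaches N-acetylglucosamine, was lower by -1.47 ± 0.13 at the end of induction (edgeR adjusted p = 4.04e-10).

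Germ line genes that methylation keeps silent in somatic cells are a common readout of the machinery. Of 14 such genes 7 passed the filter, and the other 7 were too low in both lines. Slc25a31 and Tex11 reached the limit of 0.233 CPM in 0 of 18 Control and 15 of 18 Activator libraries each, so that these 2 entered the test through the Activator line alone and had to be higher there. Ddx4 reached it in 4 Control and 17 Activator libraries. The other 4, Sycp1, Sycp3, Taf7l and Brdt, reached it in every library. Of these 4, Taf7l was higher by 3.04 ± 0.30 (edgeR adjusted p = 4.62e-10) and Brdt by 0.89 ± 0.33 (edgeR adjusted p = 0.0177) at 12 h, and Sycp1 and Sycp3 differed by -0.38 ± 0.18 and 0.25 ± 0.17, which did not pass (background 41.1% higher and 34.1% lower). The summed level of the 14 lay between 7.56 and 10.8 CPM in the Control line and between 7.72 and 23.3 in the Activator line. Whether these changes bear on DNA methylation was not tested.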

How the data were processed

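Total RNA from 36 MEF libraries, depleted of ribosomal RNA, was sequenced in pairs by the study. Reads were trimmed (cutadapt), placed on the GRCm38 genome (STAR) and assigned to genes and repeats (TEtranscripts) by the authors, and the deposited values are whole-number counts, not normalised. The annotation release, the strand setting and the sharing of multi-mapped reads are not given in the sources used here. Of 54842 genes, 54495 matched the GENCODE M21 annotation. The table also held 1561 repeat families and 1 unnamed entry, at most 0.00452% of the counts of a library, which was left out. Libraries held 27376846 to 57371803 gene counts. Intervals of 95% come from the edgeR fit, which estimates the spread between replicates of a gene over all 12 groups together. They do not show the spread of only the groups compared. For Tet3 between the lines the SE was 0.26 before induction and 0.27 at 12 h, although its Activator libraries spread more at 12 h. The labels only number the 3 replicates of a group, and the study's methods call them biological replicates.

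Genes were tested with edgeR 4.0.16 in R 4.3.3 (filterByExpr with a minimum count of 10, TMM, estimateDisp, robust glmQLFit, glmQLFTest) on 12 groups with the replicate number as a block, which follows the study's design, or additively with time point. P-values were adjusted by Benjamini-Hochberg over all 28536 genes, with a threshold of 0.05. SE was taken as the absolute log2 difference over the root of the F statistic. The scripts were tested on simulated data. Correlations used log2 CPM (counts per 1000000) with a prior count of 1. Alternatives were DESeq2 1.42.0, its size factors, other library sizes, no filter, no block, the study's limits of 2-fold and a mean of 100 counts, fewer libraries, and leaving out libraries. Leaving out replicate 2 of the Activator line was added after the data were seen. Named genes of each list were those with the largest passing rise and fall at the end of induction and at 12 h, and Tdg, the markers and the germ line genes were named after their values were seen. A gene that this rule names is not reported here. The members and lists were chosen with earlier results of these data known. Libraries of the Repressor line were not used here.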

Additional observations from a re-analysis of the deposited data

Results flagged for a closer look

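The change from the uninduced state differed between the Activator and Control lines in 27 of the 45 combinations of member and time point. This was a test of the difference itself (the interaction term, edgeR with Benjamini-Hochberg adjustment). Of all tested genes, 32.2%, 47.1%, 50.1%, 51% and 33.1% passed it from the end of induction to 24 h, in order of time. Values are the log2 change in the Activator line less that in the Control line. For Dnmt3b the difference was -1.52 at the end of induction and then, in order of time, -2.76, -2.39, -2.22 and -0.96 at the 4 later time points. Tet3 gave -1.66 at the end of induction and -2.26, -1.86 and -1.39 at 3, 6 and 12 h. For Mbd1 it was -0.50 at the end of induction, -0.57 at 3 h and -0.41 at 6 h.

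The maintenance genes differed late. Dnmt1 gave -0.66 at 12 h and -1.02 at 24 h, Uhrf1 -0.44 and -0.91, and Hells -0.94 and -0.88. Dnmt3a gave -0.60, -0.77 and -0.93 from 6 h to 24 h, and Tet2 -0.83 at 3 h and -0.69 at 6 h. Tet1, with 3 to 13 counts per Control library and few Control libraries at the limit of the filter, gave 2.36, 3.20, 3.22 and 2.64 at the 4 time points after removal.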

How the results depend on the processing

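Counts are of members passing at an adjusted p under 0.05, and differences are log2 fold changes of the Activator against the Control line unless stated. The shares of all tested genes that passed under these alternatives are not given here, so the counts describe the members alone. Of 32 passing results of single members between the lines, 25 passed in every other alternative once the limits of the study, which left 13, are set aside. Among the 25 were Dnmt1 at 12 and 24 h and Dnmt3b at all 5 time points from the end of induction. Tet1 at the same 5 is counted too, although few of its Control libraries reached the limit of the filter, and it also passed with no filter. The 7 others were Dnmt3a and Hells at 3 h and 6 h, Uhrf1 at 6 h, Mbd1 at 12 h and Tet2 at 24 h, with differences between -0.55 and 0.49. Where a value moved or turned, the cause was not tested.

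With the limits of the study, 2 members passed between the lines at the end of induction, at 3 h and at 6 h, 3 at 12 h and 4 at 24 h. Under these limits the interaction gave 2, 2, 2 and 1 members from 3 to 24 h, the Activator line 2 (induced against uninduced), 3 (24 h against uninduced) and 2 (24 h against 12 h), and the additive fit 2. The interaction at 6 h gave 3 members in place of 6 with DESeq2, with its size factors and with no replicate block. Only the 6 libraries compared gave 4 members at 6 h. Scaled to the mitochondrially encoded mRNAs, 7 members passed at the end of induction, and 3 between 24 h and 12 h in the Activator line.

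Some directions turned. DESeq2, and its size factors in edgeR, gave 0.045 for Dnmt1 at 6 h, -0.01 for Dnmt3a between 24 h and 12 h in the Activator line, and 0.087 and 0.088 for Mbd1 at 24 h, and DESeq2 gave 0 for Mbd1 at 12 h. Mbd1 at 24 h was also 0.02 on plain library sizes, 0.002 with repeat counts in the library size, 0.003 with no filter and 0.106 in the 6 libraries compared. Plain library sizes gave -0.02 and -0.091 for Dnmt1 at the end of induction and at 3 h, and 0.055 for Hells between 24 h and 12 h. The mitochondrial scale gave -0.321 and -0.585 for Dnmt1 at these times, -0.178 for Tet2 at 12 h, 0.149 for Hells between 24 h and 12 h, and -0.309 for Tet2 in the additive fit.

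When replicates or single libraries were left out, between 0 and 1 members passed before induction, from 4 to 7 both at its end and after 3 h, from 5 to 7 after 6 h, from 7 to 8 after 12 h and from 6 to 8 after 24 h. For the interaction the ranges were 0 to 6 at the end of induction, 2 to 7 after 3, 6 and 24 h and 3 to 7 after 12 h. The lowest counts, 0, 2, 2, 3 and 2 in order of time, were those with replicate 3 of every group left out. In the Activator line the ranges were 3 to 8 (induced), 5 to 9 (24 h against uninduced) and 2 to 8 (24 h against 12 h), in the Control line 0 and 0 to 1, and 7 to 9 in the additive fit. Single libraries also moved counts: the interaction gave 3 members at 3 h without Control replicate 2 or Activator replicate 3 of the uninduced cells or Control replicate 1 of 3 h, and 3 at 6 h without replicate 3 of either uninduced group or replicate 1 of either line at 6 h, while 24 h against 12 h gave 3 without Activator replicate 1 of 12 h. Without Activator replicate 2 the counts were 1 before induction, 7 at its end, 6 for the interaction at its end and 1 for the Control line at 24 h.

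Leave-out ranges that crossed 0 were -0.029 to 0.309 (Dnmt1, 3 h), -0.272 to 0.195 (Dnmt1, 6 h), -0.402 to 0.002 (Hells, induced), -0.287 to 0.089 (Uhrf1, 3 h), -0.667 to 0.054 (Tet2, 6 h), -0.093 to 0.09 (Mbd1, 24 h), -0.048 to 0.282 (Tet2, additive) and -0.233 to 0.295 (Dnmt3a, 24 h against 12 h). Before induction they were -0.115 to 0.148 (Tet3), -0.03 to 0.128 (Dnmt3a) and -0.213 to 0.005 (Dnmt3b).

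The replicate numbers are shared by name. After group means were removed, same-numbered libraries of the lines correlated between -0.01 and 0.178, 9 of 18 of them over 0.1, and 16 of 18 best with their own number, a hint from the data and not from the design. With no replicate block 4, 4, 6, 7 and 6 members passed between the lines from the end of induction to 24 h. A group of 3 libraries limits small differences, and the 3 to 13 counts of Tet1 in Control libraries limit its fold change.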
